A study of Mus musculus with 25 samples.

Results

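The 7 genes Hmgcs1, Idi1, Sqle, Fdft1, Lss, Cyp51 and Msmo1 encode enzymes that build cholesterol. They were selected by symbol from the 23990 genes of the expression table, and all 7 were found. The study sequenced total RNA of the prefrontal cortex (PFC) of wild type C57BL/6 mice aged 10 weeks, with 25 samples in 6 groups made of both sexes. Each sex had animals under social defeat stress with vehicle, animals under that stress with dihydrocaffeic acid/malvidin-glucoside, and controls (CTRL). The group described here is M-stress/vehicle, 5 libraries of males that received vehicle from before the social defeat procedure until its end. Social defeat stresses a mouse by exposure to an aggressor, and the 2 compounds are phenolics related to plant polyphenols. The libraries are called E1 to E5 after the columns of the table. The letter E occurs in no label, and its 5 columns were tied to this group because it is the only group with 5 samples. The other 20 columns carry 5 letters with 4 columns each, match the remaining groups equally well by name, and were not analysed here. The values therefore give levels and the spread between libraries of stressed males, with no comparison between stress, treatment or sex. Whether every library is a separate animal is not stated in the labels, and part of the spread may be technical.

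Cholesterol is made from acetyl-CoA. A first series of enzymes forms the isoprenoid farnesyl diphosphate, a pair of these molecules is joined to squalene, squalene is oxidised and closed into lanosterol, and lanosterol is trimmed to cholesterol. When sterols run low in the endoplasmic reticulum, the transcription factor encoded by Srebf2 is cut free from the membrane and switches on most genes of the pathway together. In the brain nearly all cholesterol is made locally, because the blood-brain barrier keeps out circulating lipoproteins, and much of it is held in myelin, the membrane sheath of oligodendrocytes.

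Promoter sequences are shown because sterol-responsive promoters of this pathway are known to combine sterol regulatory elements with NF-Y boxes. RefSeq promoters of the build GRCm38.p6, from 250 bases before to 50 bases after the start, were matched for 5 of the 7 genes, namely Hmgcs1, Idi1, Lss, Cyp51 and Msmo1. Capitals mark matches on either strand to TCACNNCA, a loose form of the sterol regulatory element, or to CCAAT, the NF-Y box, which reads ATTGG on the other strand. In Hmgcs1 the capitals also include the strict form TCACNCCAC, which contains the loose form. The letters of these motifs were chosen with the promoter sequences at hand. The windows are chr13:119690101-119690400 (plus strand) for Hmgcs1, chr5:4104648-4104947 (minus strand) for Cyp51, chr8:64733529-64733828 (minus strand) for Msmo1 and chr13:8885356-8885655 (plus strand) for Idi1.
Hmgcs1: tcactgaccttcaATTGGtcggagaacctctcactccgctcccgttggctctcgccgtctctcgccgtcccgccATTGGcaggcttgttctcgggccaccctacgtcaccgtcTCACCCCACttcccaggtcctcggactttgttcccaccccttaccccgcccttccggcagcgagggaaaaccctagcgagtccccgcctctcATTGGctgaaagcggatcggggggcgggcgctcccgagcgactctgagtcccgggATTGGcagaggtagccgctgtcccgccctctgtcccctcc
Cyp51: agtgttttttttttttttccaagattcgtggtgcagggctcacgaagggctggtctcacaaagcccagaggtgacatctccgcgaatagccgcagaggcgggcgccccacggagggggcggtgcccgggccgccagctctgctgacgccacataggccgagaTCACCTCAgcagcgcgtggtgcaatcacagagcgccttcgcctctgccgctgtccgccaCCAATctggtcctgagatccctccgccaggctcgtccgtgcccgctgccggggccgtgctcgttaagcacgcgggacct
Msmo1: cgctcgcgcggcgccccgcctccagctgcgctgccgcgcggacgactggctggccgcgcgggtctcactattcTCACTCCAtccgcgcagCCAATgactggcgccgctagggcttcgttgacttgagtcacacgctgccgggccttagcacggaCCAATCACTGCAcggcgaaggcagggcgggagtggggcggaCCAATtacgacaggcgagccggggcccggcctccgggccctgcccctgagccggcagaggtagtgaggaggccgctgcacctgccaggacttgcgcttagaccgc
Idi1: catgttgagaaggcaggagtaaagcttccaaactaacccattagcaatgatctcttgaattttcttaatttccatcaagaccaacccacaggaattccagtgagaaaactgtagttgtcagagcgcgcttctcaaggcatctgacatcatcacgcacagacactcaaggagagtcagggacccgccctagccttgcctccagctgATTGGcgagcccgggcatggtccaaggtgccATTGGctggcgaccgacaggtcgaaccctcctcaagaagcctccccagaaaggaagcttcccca

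The strict element occurred in 1 of the 5 promoters, that of Hmgcs1, starting 137 bases before the RefSeq start, from which the distances here are counted and which can differ from the GENCODE start given with the levels. Of all 32851 promoters, 1.24% held it. The loose form occurred in 3 of the 5, those of Hmgcs1, Cyp51 and Msmo1, and in 13.8% of all promoters. The Cyp51 match began 88 bases before the start, and the Msmo1 matches 177 and 92 bases before it. All 5 promoters held an NF-Y box, as did 37.4% of all promoters, and all 5 held the GC box GGGCGG, as did 35.7% of all promoters. In Msmo1 an NF-Y box and the second loose match overlap. The share of G and C was 64.7% to 71.0% in 4 of the 5 promoters and 52.3% in that of Idi1, against a median of 52.7% over all promoters. The Idi1 promoter, shown because it lacks both forms of the element, as does that of Lss, held 2 NF-Y boxes, 45 and 14 bases before the start. Among 14 promoters matched for 11 of the other cholesterol synthesis genes, 0 held the strict form, 6 the loose form, 10 an NF-Y box and 11 a GC box. A match describes letters in these windows and shows no binding, and its bearing on the levels was not tested.

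Reads assigned to genes numbered 34565147 to 44265039 a library, with E3 the deepest and E4 the shallowest. Levels are CPM, reads scaled by library size, computed from whole reads that the deposited log2 values contain, and errors are SDs over libraries (n = 5). Of the labelled tissue's markers, all 10 excitatory neuron genes, all 8 inhibitory neuron genes and all 12 astrocyte genes reached 1 CPM. In bulk tissue, fewer cells of a type and less RNA per cell cannot be told apart.

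The early steps are represented by Hmgcs1 and Idi1. Hmgcs1, the cytosolic enzyme that forms HMG-CoA, stood at 367 CPM in E1, 370.01 CPM in E2, 450 CPM in E3, 404 CPM in E4 and 356 CPM in E5. It was highest in E3 and lowest in E5, and its mean of 389 ± 38.1 CPM rested on 13927 to 20052 reads a library (chromosome 13, 119690379 to 119708260, plus strand, GRCm38). Idi1, which interconverts the C5 isoprenoid building blocks, stood at 21.8, 20.3, 26.9, 22.0 and 19.99 CPM in E1 to E5. Library E3 stood above the other libraries, which lay between 19.99 and 22.0 CPM. Its mean was 22.2 ± 2.75 CPM, with 760 to 1198 reads a library (chromosome 13, 8885501 to 8892451, plus strand).

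Fdft1, Sqle and Lss carry out the squalene steps. Fdft1, squalene synthase, commits farnesyl diphosphate to sterols and stood at 107, 111, 126, 111 and 114 CPM in E1 to E5. Relative to its level it had the smallest spread of the 7 genes (SD of log2 0.09), with a mean of 114 ± 7.44 CPM (chromosome 14, 63145150 to 63179578, minus strand). Sqle, squalene epoxidase, which is a rate-limiting enzyme of the later pathway, stood at 79.4, 81.3, 97.8, 74.3 and 85.8 CPM. Its mean was 83.7 ± 8.87 CPM, and E4 was lowest (chromosome 15, 59315077 to 59331192, plus strand). Lss, lanosterol synthase, closes the sterol rings and stood at 49.8, 49.2, 53.2, 43.6 and 42.5 CPM. It differed from the other genes in that E1 and E2 lay nearer to E3 than to E4 and E5, and its mean was 47.6 ± 4.498 CPM (chromosome 10, 76531588 to 76557138, plus strand).

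Cyp51 and Msmo1 act on lanosterol and its products. Cyp51, the lanosterol demethylase, stood at 89.6, 79.8, 97.8, 89.9 and 89.1 CPM in E1 to E5. Libraries E1, E4 and E5 were close to each other, E2 was below and E3 above them, and the mean was 89.2 ± 6.40 CPM (chromosome 5, 4081145 to 4104746, minus strand). Msmo1, the methylsterol monooxygenase that starts removal of methyl groups from the ring, stood at 91.7, 84.1, 109 (E3), 94.9 and 92.3 CPM. Its order was that of Cyp51 at both ends, with E3 highest and E2 lowest, and its mean was 94.4 ± 9.07 CPM (chromosome 8, 64718139 to 64733792, minus strand).

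**Figure D1:**
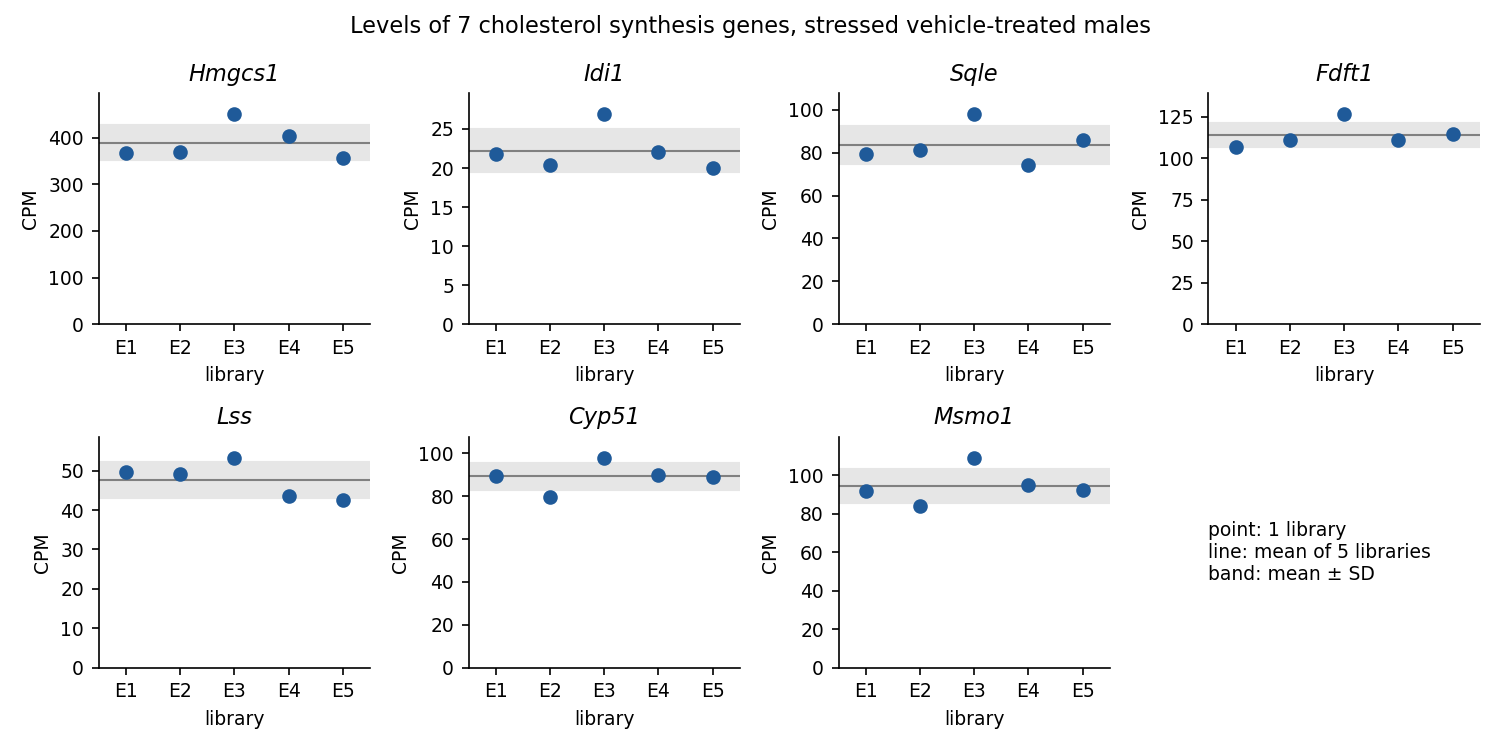
Level in CPM of each of the 7 genes (vertical axes, starting at 0) in libraries E1 to E5 (horizontal axes). Each point is 1 library, the line is the mean and the band is the mean ± SD of the 5 libraries. E3 is the highest point in each panel, at 450 CPM for Hmgcs1 and 26.9 CPM for Idi1.

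Strandedness of the counting is not given in the sources used here, and some genes overlap others on the opposite strand. The exons of Fdft1 share 774 bases with Ctsb, a cathepsin gene at 548 ± 36.2 CPM, and those of Cyp51 share 166 bases with Akap9, at 65.4 ± 4.44 CPM. Reads from these shared bases cannot be told apart without strand.

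Levels of different genes can be compared per kilobase of transcript (RPKM). With the union of all annotated exons in GENCODE M21 as length, the mean level per kilobase was 84.8 ± 8.29 RPKM for Hmgcs1, 26.9 ± 1.76 for Fdft1, 20.2 ± 1.45 for Cyp51, 15.4 ± 1.48 for Msmo1, 15.1 for Sqle, 6.34 ± 0.784 for Idi1 and 4.42 ± 0.417 for Lss. The library ranges of Msmo1 (13.7 to 17.7 RPKM) and Sqle (13.4 to 17.6 RPKM) overlapped, so that these neighbours did not differ beyond their spread. The other neighbouring pairs had ranges that did not overlap. This order depends on the length chosen. With the exons of the principal transcript alone, a choice made after seeing the data, Msmo1 was at 46.2 ± 4.44 RPKM and second to Hmgcs1 at 112 ± 10.99 RPKM, and Lss at 10.2 ± 0.964 RPKM stood above Idi1 at 7.34 ± 0.908 RPKM. Sqle at 30.4 ± 3.22 RPKM and Fdft1 at 30.8 ± 2.01 RPKM then overlapped, and Cyp51 was at 22.7 ± 1.63 RPKM. The union length of Msmo1 is 6144 bases and its principal transcript 2044 bases. The place of Hmgcs1 as the most abundant of the 7 held under both lengths.

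**Figure D2:**
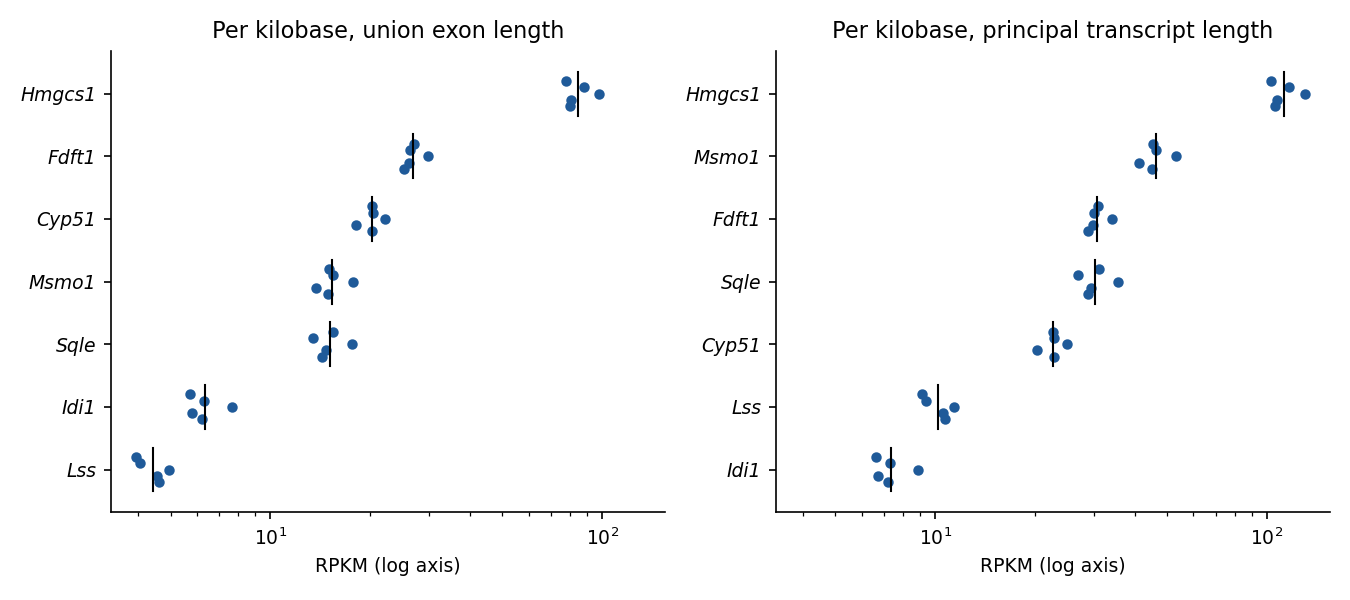
Level per kilobase (RPKM, log axis) of the 7 genes, ordered by mean, with the union exon length on the left and the principal transcript length on the right. Points are libraries and vertical lines are means. Hmgcs1 is at the top in both panels, while every other gene changes place.

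The 7 genes were highest in the same library. E3 held the highest level for 7 of 7, against 19.3% of the 14524 genes that averaged 1 CPM or more. The ratio of E3 to the mean of the other libraries was 1.28 for Idi1, 1.22 for Sqle, 1.20 for Hmgcs1, 1.20 for Msmo1, 1.15 for Lss, 1.14 for Fdft1 and 1.12 for Cyp51. The median ratio was 1.20 for the 7 genes and 1.00 for genes of at least 1 CPM. Scaled to summed reads or by the median of ratios, the 7 genes had median ratios of 1.19 and 1.19, and E3 was highest for 7 of 7 under each. The lowest library was not shared, being E5 for Hmgcs1, Idi1 and Lss, E2 for Cyp51 and Msmo1, E4 for Sqle and E1 for Fdft1.

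All 7 genes varied between libraries by more than counting error (chi-square test that reads follow effective library size, Benjamini-Hochberg adjusted over 19239 genes). Such calls were common, with 74.4% of genes tested, so the count sets the 7 genes little apart. The adjusted p was 7.91e-134 for Hmgcs1, which had the most reads, and 3.62e-11 for Idi1, which had the fewest. Without E3, Idi1 lost its call (adjusted p = 0.159) and 6 of 7 were called, Fdft1 with an adjusted p of 0.0219. The coefficient of variation beyond counting error was 11.9% for Idi1, 10.5% for Sqle, 9.74% for Hmgcs1, 9.47% for Msmo1, 9.16% for Lss, 6.97% for Cyp51 and 6.36% for Fdft1. Its median was 9.47% for the 7 genes, against 8.26% for genes of at least 1 CPM.

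**Figure D3:**
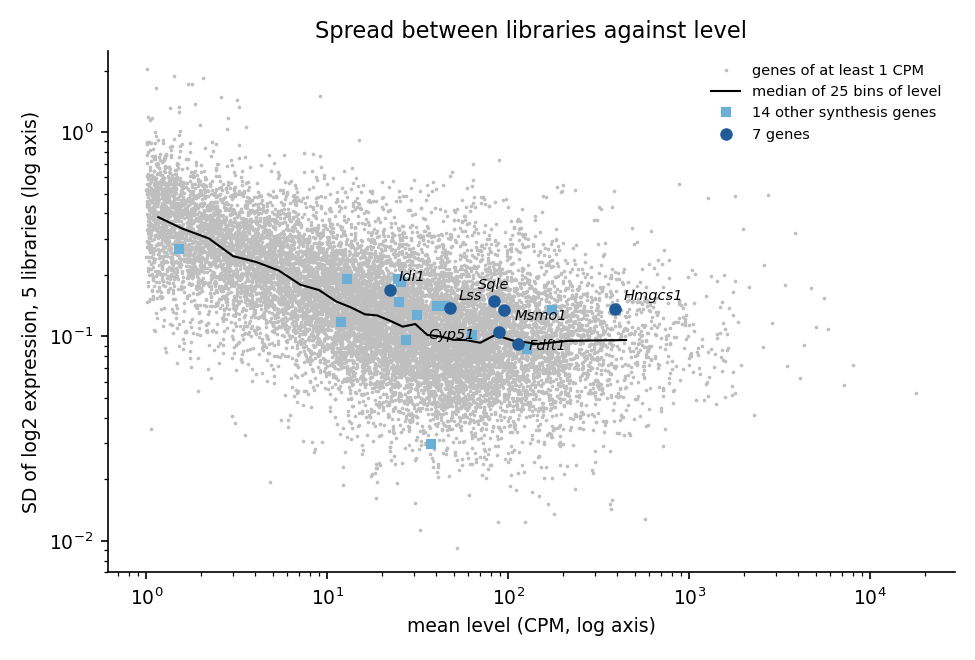
SD of log2 expression over the 5 libraries against mean level in CPM, both on log axes, for genes of at least 1 CPM (grey), the 14 other synthesis genes (squares) and the 7 genes (circles). The black line joins the medians of 25 bins of level. The SDs of the 7 genes run between 0.09 for Fdft1 and 0.17 for Idi1, inside the grey cloud.

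The shared part of this variation was described by a score, the mean over the 7 genes of log2 expression less each gene's mean. The score was 0.20 in E3, against -0.03 in E1, -0.08 in E2, -0.03 in E4 and -0.06 in E5, a span of 1.21-fold and an SD of 0.11. Without E3 the span was 1.03-fold and the SD 0.021, so the spread of the score rested on that library. Library E3 was also the deepest, and the part of depth in this was not tested. Each gene also departed from the others. The SD of its log2 level less the mean profile of the other 6 genes was 0.12 for Lss, 0.10 for Sqle, 0.08 for Cyp51, 0.08 for Idi1, 0.07 for Hmgcs1, 0.06 for Fdft1 and 0.06 for Msmo1. These SDs include counting error and unequal rises in E3, which were not separated from variation of single genes.

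The other 14 genes of cholesterol synthesis showed the same high library. E3 was highest for 11 of 14, and for 18 of all 21 genes under each of the 3 scalings, against 19.3% of genes of at least 1 CPM. Of the 14 genes 12 varied beyond counting error, against 74.4% of all genes tested. Their score was 0.17 in E3 and between -0.08 and 0.02 in the other libraries. Of the 6 other genes before squalene, 4 varied beyond counting error, near the share of all genes tested. Acat2, which forms acetoacetyl-CoA, averaged 44.8 ± 4.52 CPM, with E3 at 1.21 times the average of the other libraries.

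The exceptions before squalene were Pmvk and Fdps. Pmvk, phosphomevalonate kinase, stood at 36.9, 36.1, 37.7, 37.6 and 38.0 CPM, and its spread did not exceed counting error at this depth (adjusted p = 0.673). Fdps, farnesyl diphosphate synthase, stood at only 1.52 ± 0.265 CPM (adjusted p = 0.137), and its exons share 1124 bases with Gm43738 on the same strand, a gene not analysed here. The level of Fdps is therefore uncertain.

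All 8 other genes after squalene varied beyond counting error, against 74.4% of all genes tested. Of these 8 genes 7 were highest in E3, against 19.3% of genes of at least 1 CPM. Sc5d, a sterol desaturase, averaged 62.7 ± 4.52 CPM, and Dhcr7, the last enzyme of one branch of the pathway, 40.5 ± 3.88 CPM. Nsdhl, which works on the same methyl groups as Msmo1, stood at 20.9, 24.4, 30.0, 23.1 and 23.9 CPM in E1 to E5. It had the largest spread of these 8 genes (SD of log2 0.19), with E3 at 1.30 times the average elsewhere. E1 was the lowest library for 6 of these 8 genes, against 25.2% of genes of at least 1 CPM, and for 1 of the 7 genes, Fdft1. The gene not highest in E3 was Tm7sf2, a sterol reductase at 30.1 CPM in E1 and 26.8 CPM in E3, which shares 532 exonic bases with Vps51 on the same strand.

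**Figure D4:**
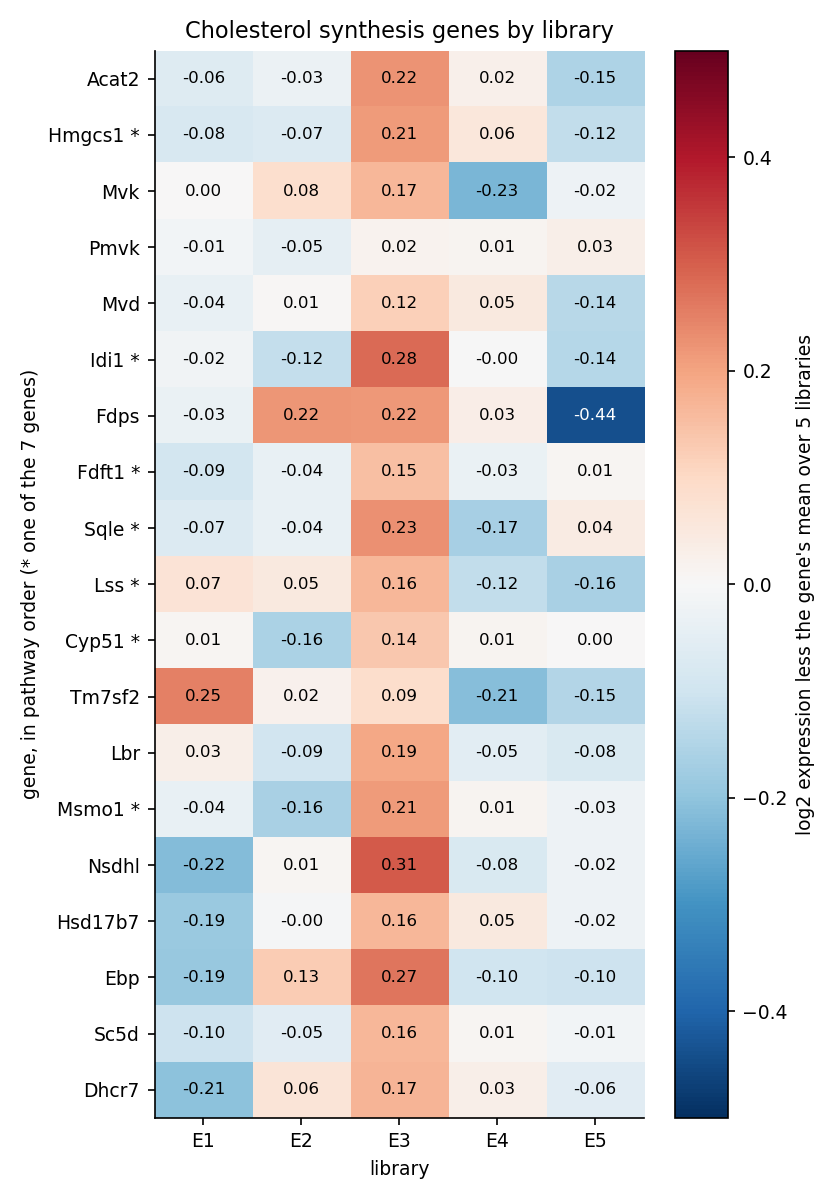
Centred log2 expression (each gene's average over the 5 libraries taken off) of 19 of the 21 cholesterol synthesis genes in pathway order (rows, asterisks for the 7 genes) and libraries E1 to E5 (columns). Red cells are above and blue cells below the mean. The E3 column is above the mean in every row and the highest of its row in 16 of 19.

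Among the regulators of the pathway E3 was highest for 7 of 13, against 19.3% of genes of at least 1 CPM. Of the 13 regulators 12 varied beyond counting error, against 74.4% of all genes tested. Srebf2, the pathway's main transcription factor, stood at 283, 328, 311, 282 and 299 CPM in E1 to E5, so that it was highest in E2 and not in E3. Scap, which escorts that factor, averaged 81.3 ± 4.75 CPM and was highest in E1. Insig1, a feedback inhibitor that is itself a sterol-regulated target, stood at 90.2, 94.1, 113 (E3), 103 and 86.8 CPM, and the E3 level was 1.21 times the average elsewhere.

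Among genes of sterol efflux and turnover, E3 was highest for 2 and lowest for 5 of the 11 that reached 1 CPM, against 19.3% of genes at that level highest and 16.9% lowest there. Of the 12 listed genes 10 varied beyond counting error, against 74.4% of all genes tested, so the counts highest in E3 and varying lay near those of genes in general. Cyp46a1, the neuronal hydroxylase that turns cholesterol into a form that leaves the brain, stood at 181, 184, 164, 194 and 195 CPM in E1 to E5. It was lowest in E3, at 0.868 times the average elsewhere. Apoe, which encodes the main apolipoprotein of the brain, averaged 1201 ± 40.9 CPM and was also lowest in E3 (1148 CPM). Clu, which encodes another apolipoprotein, averaged 644 ± 47.6 CPM. Nr1h3, a sterol-sensing receptor, was low at 3.19 ± 0.526 CPM.

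Myelin genes, whose cells are large makers of cholesterol, were also highest in E3. All 15 mature oligodendrocyte genes peaked there, and their score was 0.60 in E3, 0.29 in E1, 0.11 in E2, -0.52 in E4 and -0.47 in E5. Their summed level was 9619 CPM in E3 and 4407 to 7855 CPM in the others. Among the other 4 libraries the score of the 7 genes had little spread (SD 0.021) to set against the myelin score. Lss alone of the 7 had both E1 and E2 above both E4 and E5, as the myelin score did. Its log2 level less its mean was 0.07 and 0.05 in E1 and E2, and -0.12 and -0.16 in E4 and E5. In E1 and E4 the score of the 7 genes was -0.03 and -0.03, where the myelin score was 0.29 and -0.52. Without E3 the score of the 7 genes spanned 1.03-fold and the myelin score 1.76-fold. A score averages over genes, and the 7 genes varied more singly. Without E3 their SDs of log2 ran from 0.04 for Fdft1 to 0.12 for Lss. Those of the myelin genes ran from 0.27 for Trf to 0.50 for Mobp. The part of the oligodendrocyte share in the E3 levels was not tested. Astrocyte genes, which mark other cholesterol-making cells, had scores of -0.02 in E3 and 0.16 in E1, their highest library, and E3 was highest for 0 of 12. Pericyte, mural and meningeal genes and blood genes had their lowest scores in E3, -0.46 and -0.74, and their highest in E4, 0.54 and 1.15. Yet E3 was lowest for only 3 of the 7 blood genes, against 16.9% of genes of at least 1 CPM. The other blood genes were lowest in E2. The blood score weighs low genes such as S100a9 heavily, which had 16 reads in E3 and centred values of -1.13 in E3 and 3.02 in E4. Excitatory and inhibitory neuron genes had scores of -0.07 and 0.05 in E3, averages over genes on both sides of their means. Single excitatory genes ran from -0.93 to 0.15 there, and single inhibitory genes from -0.36 to 0.41. The microglia and endothelial scores were also at their lowest in E3, at -0.11 and -0.15, although only 2 of the 7 endothelial genes were lowest there, and oligodendrocyte precursor genes stood at 0.04 there.

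**Figure D5:**
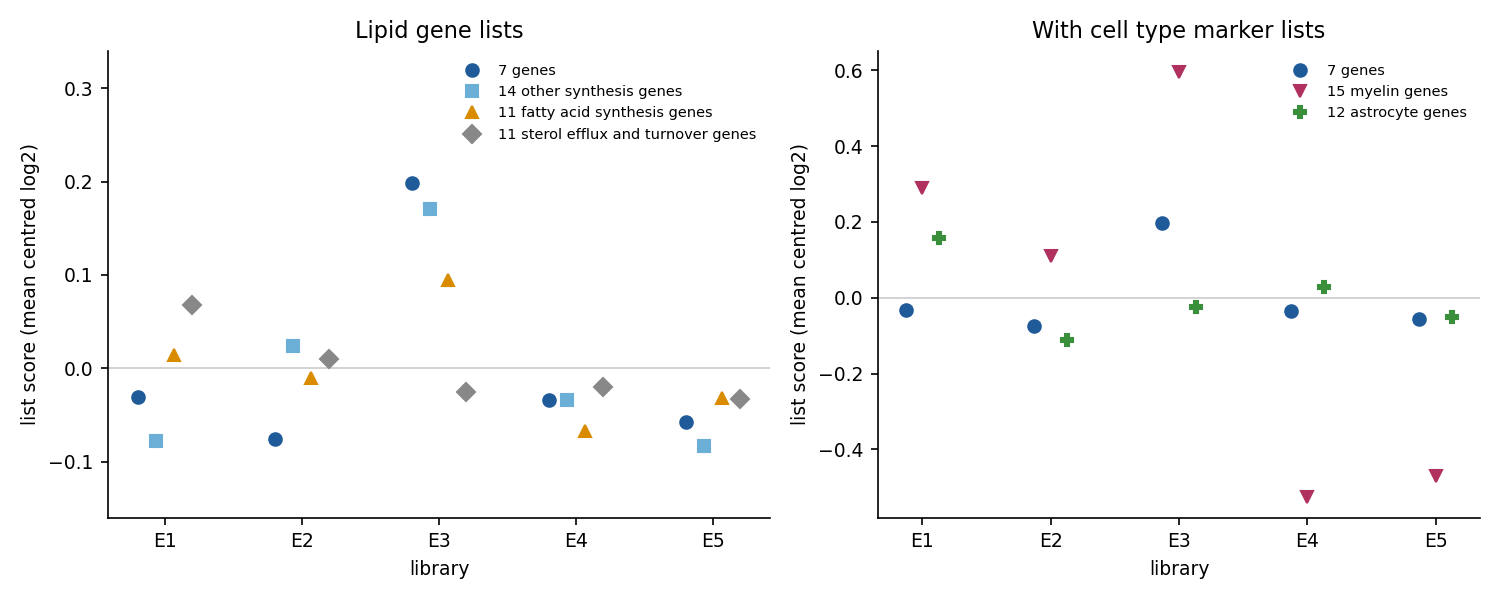
List scores, the mean over a list's genes of log2 expression less each gene's mean, in libraries E1 to E5 for lipid gene lists (left) and for the 7 genes with cell type marker lists (right, wider vertical axis). Each point is 1 list in 1 library. The 7 genes and the 14 other synthesis genes are highest in E3, at 0.20 and 0.17, while myelin genes, also highest in E3, differ among all 5 libraries.

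The genes nearest to the 7 in pattern were found by the root mean square difference between a gene's centred log2 values and the mean profile of the 7, over 5 libraries and 9877 genes of at least 10 CPM. In rising order of this difference, the 10 nearest were Cdk19, Snrpe, Sem1, Scarb2, Adh5, Slu7, BC005624, Pak2, Paqr4 and Degs1. The difference ran from 0.015 for Cdk19 to 0.030 for Degs1, against a median of 0.136 over the genes compared. Cdk19, a kinase of the transcriptional mediator complex, stood at 98.96 CPM in E3 and at 80.3 to 84.0 CPM in the others. Of the 13 other synthesis genes at this level, 5 were among the nearest 10%, with Lbr, a sterol reductase of the nuclear membrane, nearest at rank 12 (0.031) and Sc5d at rank 73 (0.045). The likeness rests on 5 libraries and says nothing of shared function or control.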

How the data were processed

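The authors deposited log2 values. The submitters' processing notes name the builds GRCm38 and mm10 and the tools edgeR, featureCounts, Subread 1.6.3, SAMtools 1.9 and STAR 2.6.1d. Annotation release, gene filter and strandedness: not given in the sources used here. The values equal log2 of whole reads plus 0.5 over an effective library size: with a column's lowest value taken as 0 reads, 100% of values came out whole within 1e-06 reads. The authors' effective sizes were 0.998 to 1.04 times the summed reads.

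CPM, RPKM and scores were computed from these reads with scipy 1.17.1, pandas 2.3.3 and numpy 2.4.6 in Python 3.11.15, and drawn with matplotlib 3.10.9. Names, coordinates and lengths are from GENCODE M21 on GRCm38, which named 23846 of 23990 identifiers. The chi-square test (4 degrees of freedom) used genes averaging at least 5 reads and was tested on simulated data. It covers counting error only. A total of 20 columns was not matched to samples and not used. Each pair of libraries differed in at least 5653 genes.

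The 7 genes, the lists and the tests were chosen with earlier results of these data known. Named genes are the 7, the 3 most abundant and the most variable member of each pathway list, and the 10 nearest in profile; others named (such as Tm7sf2, Lbr, Mvd, marker genes and overlapping genes) were chosen after their values were seen. A few listed genes enter the counts and scores and are not reported here by name. Alternatives were 2 other scalings, 0.1 or 2 reads added, minimums of 20 or no reads, all 21 synthesis genes, leaving out each library, and, added later, principal transcript lengths.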

Additional observations from a re-analysis of the deposited data

Results flagged for a closer look

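Of 167 gene levels and list scores examined, 6 had 1 library standing apart by Dixon's ratio (its gap to the nearest library over the whole range), where about 1 in 20, or 8.3, would be flagged by chance. The score of the 7 cholesterol synthesis genes stood apart in E3, on the high side, with a ratio of 0.837. The score of all 21 synthesis genes, which contains the 7, did so with a ratio of 0.742. The score of the 14 other synthesis genes alone was examined too and was not flagged. No single synthesis gene examined stood apart in this way. The farnesyltransferase subunit gene Fnta was low in E2 (36.5 CPM there, ratio 0.91). Among marker genes, Cspg4 was low in E4 (0.719), Vtn high in E1 (0.752) and S100a9 high in E4 (0.811).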

How the results depend on the processing

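The mean levels of the 7 genes moved by less than 1 SD under both other scalings. Leaving out a library cannot move a mean by as much as the SD of the same libraries, so that limit tests nothing there. The largest shift in CPM from leaving one out was to 374 CPM for Hmgcs1 without E3. The SD of the score of the 7 genes was 0.021 without E3 and up to 0.128 without another library, 0.107 to 0.109 with other scalings, 0.112 with 0.1 or 2 reads added, and 0.104 for all 21 genes. All 7 genes stayed called beyond counting error under both scalings and both read minimums, and 6 to 7 when a library was left out. Genes called in all numbered 12693 with a minimum of 20 mean reads, 15862 with no minimum, and 12646 to 13125 when a library was left out. Without E3, Lbr and Sc5d also lost their calls (adjusted p = 0.595 and 0.066), and without E5, Mvd (0.0738). With principal transcript lengths the levels per kilobase of all 7 genes were higher, most so for Msmo1, at 46.2 RPKM against 15.4 RPKM with union lengths. The planned comparisons of stress, treatment and sex were not run, since the columns of the other groups were not matched. No paired analysis was possible because just 1 group was tied to columns.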

Other observations

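Fatty acid synthesis genes, many of which are targets of the related factor encoded by Srebf1, had a score of 0.09 in E3 and between -0.07 and 0.01 in the other libraries. E3 was highest for 7 of 11, against 19.3% of genes of at least 1 CPM, and all 11 varied beyond counting error, against 74.4% of all genes tested. The desaturase gene Scd1 stood at 325, 312, 384, 299 and 278 CPM in E1 to E5, with E3 at 1.27 times the mean of the others. Scd2, the main desaturase of the brain, averaged 1755 ± 156 CPM and was at 1967 CPM in E3, and Fasn, fatty acid synthase, averaged 342 ± 23.1 CPM.

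Other genes lead farnesyl diphosphate to protein prenylation, dolichol and ubiquinone. Their list also holds an isomerase gene of an earlier step, which stayed below 1 CPM. Of 9 listed genes 8 reached 1 CPM, and E3 was highest for 0 of 8, a count that lies near the 19.3% of all genes at that level. Of the 8 genes 4 varied beyond counting error, against the same 74.4%. Nus1 and Dhdds, the subunits of the enzyme that makes dolichol precursors, averaged 100.2 ± 1.86 and 65.2 ± 1.53 CPM and did not exceed counting error. Fnta averaged 39.7 ± 1.81 CPM. Pdss2, which makes the ubiquinone tail, averaged 12.1 ± 1.16 CPM and was the most variable of them (SD of log2 0.14).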
